A study of Mus musculus with 12 samples.

Results

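The 10 genes described here regulate skeletal muscle formation or are among its first protein products, and they were read in whole mouse embryos with 2, 1 or 0 working copies of Mfsd12. They were taken by symbol as the rows for Pax3, Pax7, Lbx1, Myf5, Myf6, Myod1, Myog, Mymk, Acta1 and Myh3, which is 10 of the 41079 genes counted. All 10 passed the filter on low counts that left 20771 genes for testing. The rule that picks them names genes and uses no measured value, but it was set with earlier results of these data known.

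The embryos came from timed matings in which both parents carried 1 disrupted Mfsd12 allele, and were collected 10.0 to 11.0 days after fertilization. The labels place 4 embryos in the wild-type, 4 in the heterozygous (Mfsd12 Het) and 4 in the knockout (Mfsd12 Knockout) group. The MFSD12 protein sits in the lysosomal and melanosomal membrane, where cysteine import depends on it. The nature of the knockout allele and the strain are not given in the sources used here. Every sample was a whole embryo, so trunk, limb, head and heart muscle were measured together, and fewer muscle cells cannot be told apart from less RNA per cell. Embryos are numbered 1 to 4 within a genotype in deposition order, and these numbers link no embryos across genotypes.

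Skeletal muscle of the trunk and limbs arises from somites, in which PAX3 and PAX7 mark the precursor cells, and LBX1 marks those that migrate into the limb. The basic helix-loop-helix factors MYF5, MYF6 and MYOD1 commit these cells to the muscle fate, and MYOG drives their differentiation. Differentiated myoblasts fuse through the membrane protein myomaker (Mymk) and fill with sarcomere proteins such as skeletal actin (Acta1) and embryonic myosin heavy chain (Myh3). At midgestation the first differentiated muscle cells lie in the myotomes of the somites.

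Levels are given as CPM, the counts of a gene scaled to the embryo's library total, and embryos held between 53133084 and 67977990 counted reads. The mean Mfsd12 level was 11.9 ± 3.23 (wild-type, SD, n = 4), 5.84 ± 2.56 (heterozygous) and 2.97 ± 0.544 CPM (knockout), and knockout against wild-type gave -2.01 ± 0.33 (log2, SE, edgeR adjusted p = 0.385). The library labelled heterozygous 2 had 2.58 CPM, within the knockout range of 2.31 to 3.57 CPM, so it went against its label. The titles carry a first number with no stated meaning. It was 18 for wild-type 1, wild-type 2, heterozygous 1 and knockout 3, and 4 for wild-type 3, wild-type 4, heterozygous 4 and knockout 2. The library labelled heterozygous 2 and knockout 1 carried 14, knockout 4 carried 15 and heterozygous 3 carried 4.1b. Ddx3y, a Y-linked gene, exceeded 1 CPM in 3 of 4 wild-type and 3 of 4 knockout embryos but in 0 of 4 heterozygous embryos. Yolk sac endoderm markers summed to 4651 CPM in knockout 3, against 17.4 to 677 CPM in the other embryos.

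The stretches of 250 bases in front of the annotated starts of Myf5, Myog, Myh3 and Acta1 are shown because these genes, a determination factor, a differentiation factor and 2 sarcomere genes, did not follow one pattern over the embryos. They are RefSeq sequences of the build GRCm38.p6, written 5′ to 3′ on the gene's strand and ending at the base before the start. The table used held 5 of the 10 genes, and Pax7 was the other one. The Myf5 stretch is chr10:107486135-107486384 on the minus strand, that of Myog is chr1:134289754-134290003 on the plus strand, that of Myh3 is chr11:67078050-67078299 on the plus strand and that of Acta1 is chr8:123894776-123895025 on the minus strand. Capitals mark E-boxes (CANNTG, the letters bound by basic helix-loop-helix factors), the CArG box (the serum response factor motif) and TATAAA.
Myf5: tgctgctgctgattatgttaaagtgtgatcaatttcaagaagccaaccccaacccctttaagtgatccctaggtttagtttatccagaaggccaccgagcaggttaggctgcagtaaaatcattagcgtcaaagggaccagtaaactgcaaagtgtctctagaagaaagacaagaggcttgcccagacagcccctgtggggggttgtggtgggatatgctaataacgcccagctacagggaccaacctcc
Myog: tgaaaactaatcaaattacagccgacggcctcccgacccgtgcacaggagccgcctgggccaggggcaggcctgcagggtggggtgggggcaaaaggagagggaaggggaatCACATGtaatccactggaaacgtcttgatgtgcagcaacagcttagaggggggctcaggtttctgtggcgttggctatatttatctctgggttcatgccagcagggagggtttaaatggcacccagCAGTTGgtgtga
Myh3: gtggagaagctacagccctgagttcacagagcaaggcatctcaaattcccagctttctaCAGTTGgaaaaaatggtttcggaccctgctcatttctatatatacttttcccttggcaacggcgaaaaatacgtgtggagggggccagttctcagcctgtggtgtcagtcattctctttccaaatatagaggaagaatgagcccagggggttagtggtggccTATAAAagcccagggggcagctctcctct
Acta1: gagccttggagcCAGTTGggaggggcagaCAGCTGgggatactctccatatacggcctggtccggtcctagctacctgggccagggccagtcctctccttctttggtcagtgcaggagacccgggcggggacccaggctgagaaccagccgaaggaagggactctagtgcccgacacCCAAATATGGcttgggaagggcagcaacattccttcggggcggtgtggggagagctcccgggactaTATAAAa
E-boxes and CArG boxes were searched on both strands and TATAAA on the gene's strand. The Myog stretch holds the E-boxes CACATG at -138 to -133 and CAGTTG at -12 to -7, counted back from the start. In front of Acta1 lie the E-boxes CAGTTG at -238 to -233 and CAGCTG at -221 to -216, a CArG box at -73 to -64 and TATAAA at -7 to -2. The Myh3 stretch has the E-box CAGTTG at -191 to -186 and TATAAA at -29 to -24. No motif searched occurs in those of Myf5 and Pax7. The MEF2 site, searched on both strands as YTAWWWWTAR (Y is C or T, W is A or T, R is A or G), has no full match in any of the 5. Stretches that depart from this pattern by a single letter, such as ctatatttat in front of Myog, were not counted. Over all 32851 promoter stretches of the same length, 66.2% hold an E-box, 7.59% TATAAA, 2.92% a MEF2 site and 1.47% a CArG box. These matches describe letters and are not evidence of binding.

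All 10 genes were detected, but at very different levels. Per kilobase of exon, and averaged over the 12 embryos, Acta1 was highest at 18.6 ± 11.0 CPM per kilobase (SD, n = 12), followed by Myog at 10.7 ± 7.72 and Pax3 at 7.02 ± 2.22 CPM per kilobase. Myh3 (3.05 ± 1.78), Pax7 (1.47 ± 0.632), Myf5 (1.28 ± 0.432) and Myod1 (1.21 ± 1.32 CPM per kilobase) came next. The lowest levels per kilobase were those of Myf6 (0.847 ± 0.608), Mymk (0.728 ± 0.383) and Lbx1 (0.393 ± 0.152 CPM per kilobase). Of the 9 pairs of neighbours in this order, only Pax3 and Myh3 differed by more than both SDs, and Pax3 was above Myh3 in 12 of 12 embryos. The order of the others varied between embryos: Acta1 exceeded Myog in 8 of 12, and Myod1 exceeded Myf6 in 5 of 12.

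**Figure D1:**
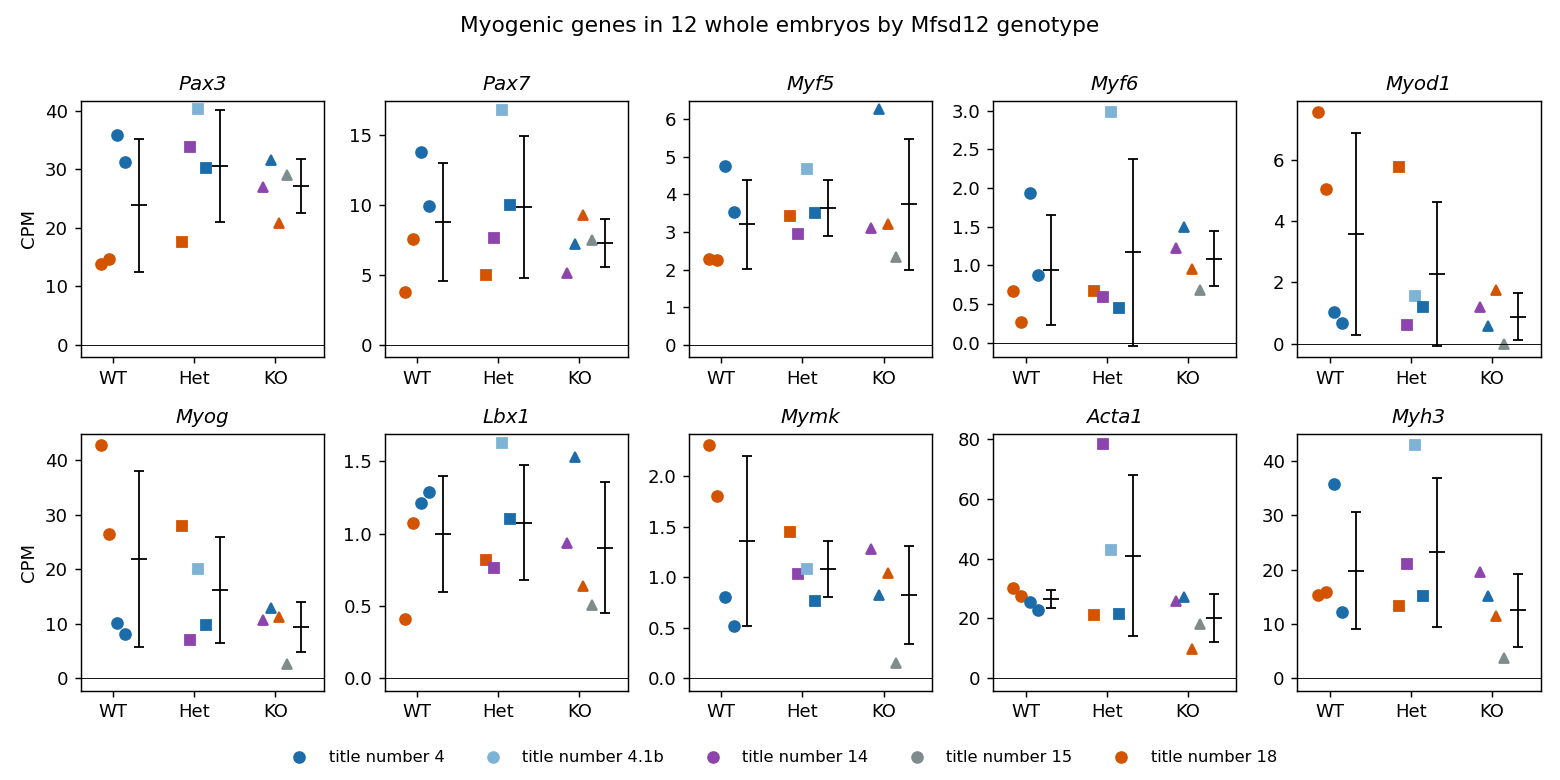
CPM of each of the 10 genes (vertical axes, a scale per gene) in the 12 embryos by genotype (horizontal axes), with 1 point per embryo, colour for the first number in the title, and bars for the mean ± SD of 4 embryos. For Myod1, Myog and Mymk the wild-type and heterozygous embryos of title number 18 stand highest, and for Pax3 they stand lowest.

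Pax3, the paired-box factor of muscle precursors that is also expressed in the dorsal neural tube and neural crest, lies on chromosome 1 from 78077904 to 78173773 on the minus strand of GRCm39, the build of all gene positions below. Its level was 13.8, 14.6, 35.9 and 31.2 CPM in wild-type 1 to 4, and 17.6, 33.8, 40.3 and 30.3 CPM in heterozygous 1 to 4. In knockout 1 to 4 it was 27.0, 31.6, 20.8 and 29.1 CPM. The groups overlapped, and the 4 embryos of title number 18 held the 4 lowest values. The knockout mean of 27.1 ± 4.61 CPM lay between those of wild-type (23.9 ± 11.4) and heterozygous embryos (30.5 ± 9.55 CPM), a log2 fold change of 0.18 ± 0.32 (SE) against wild-type (edgeR quasi-likelihood test, adjusted p = 0.873). Markers of the other sites of Pax3 expression gave overlapping sums in the groups. Dorsal neural tube markers summed to 198 to 209 CPM in wild-type, 169 to 216 in heterozygous and 192 to 216 CPM in knockout embryos. Neural crest markers summed to 290 to 357, 316 to 342 and 266 to 334 CPM. Such sums weight abundant genes. As mean log2 CPM, each gene centred on its mean over all embryos, dorsal neural tube markers varied with the title number. They were at -0.461 to -0.0553 in the embryos of number 18 and 0.120 to 0.202 in those of number 4. The library labelled heterozygous 2 and knockout 1 were at -0.320 and -0.151. Neural crest markers were at -0.171 to 0.224 in number 18 and -0.0891 to 0.0870 in number 4. How much of the Pax3 RNA came from each site was not tested.

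Pax7, the paralog of Pax3, lies on chromosome 4 from 139464357 to 139560841 on the minus strand. It ranged from 3.79 CPM in wild-type 1 to 16.8 CPM in heterozygous 3, and in knockout embryos from 5.15 to 9.28 CPM. Knockout against wild-type gave a log2 fold change of -0.27 ± 0.40 (SE, edgeR adjusted p = 0.848). The span of the predicted gene Gm46873 overlaps it on the other strand. Counting did not use strand, so reads on any exon bases that both genes share could not be told apart. Pax7 counts were fractional in 2 of 12 embryos. Per kilobase, Pax3 exceeded Pax7 by 2.93 to 7.95 times in the 12 embryos.

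Lbx1, the homeobox factor of migrating limb muscle precursors, which is also expressed in dorsal spinal cord interneurons, lies on chromosome 19 from 45221123 to 45225280 on the minus strand. It was the lowest gene per kilobase, with 24 to 92 counts per embryo and 0.413 to 1.63 CPM. Its means of 0.996 ± 0.398 CPM in wild-type, 1.08 ± 0.396 in heterozygous and 0.901 ± 0.452 CPM in knockout embryos differed by less than their SDs. The difference between knockout and wild-type was -0.15 ± 0.45 (log2, SE, edgeR adjusted p = 0.931).

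Myf5, the first of the determination factors to be switched on in the mouse somite, lies on chromosome 10 from 107318769 to 107322787 on the minus strand. It had the smallest fold range of the 10 genes, with 2.78-fold between the highest and lowest embryo, close to the 2.93-fold of Pax3. Wild-type 1 to 4 had 2.27, 2.26, 4.75 and 3.54 CPM, and heterozygous 1 to 4 had 3.44, 2.94, 4.68 and 3.51 CPM. Knockout 1 to 4 had 3.11, 6.28, 3.21 and 2.34 CPM. The highest value was that of knockout 2, and the other 3 knockout embryos lay within the wild-type range. Means were 3.21 ± 1.19, 3.64 ± 0.737 and 3.73 ± 1.74 CPM, and knockout differed from wild-type by 0.22 ± 0.34 (log2, SE, edgeR adjusted p = 0.855). Without knockout 2 the sign changed, to -0.15.

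Myf6 (also called Mrf4), which neighbours Myf5 on chromosome 10 from 107328709 to 107330584 on the minus strand, was near 1 CPM. It ranged from 0.261 CPM in wild-type 2 to 2.98 CPM in heterozygous 3, with 18 to 163 counts per embryo. The knockout mean of 1.08 ± 0.352 CPM lay between the wild-type mean of 0.933 ± 0.712 and the heterozygous mean of 1.17 ± 1.21 CPM (knockout against wild-type 0.21 ± 0.66 log2, SE, edgeR adjusted p = 0.931). Without wild-type 2 the sign changed, to -0.086.

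Myod1, the determination factor that follows Myf5 in the trunk, is on the plus strand of chromosome 7 between 46025898 and 46028516. Its level was 7.56, 5.06, 1.05 and 0.660 CPM in wild-type 1 to 4, and 5.76, 0.613, 1.57 and 1.20 CPM in heterozygous 1 to 4. Knockout 1 to 3 had 1.21, 0.564 and 1.76 CPM, and knockout 4 had a count of 0, which allows up to 0.0460 CPM (3 counts, for counting error only). The 4 embryos of title number 18 held the 4 highest values. Wild-type 1, wild-type 2 and heterozygous 1 stood far above the rest, and knockout 3 came next, just above the 1.57 CPM of heterozygous 3. The range of the knockout values overlapped that of the other wild-type and heterozygous values. The knockout mean of 0.881 ± 0.763 CPM was 4.06-fold below the wild-type mean of 3.58 ± 3.31 CPM in the fit (log2 fold change -2.02 ± 1.06 SE), which did not pass the test (edgeR adjusted p = 0.623). Against heterozygous embryos (2.29 ± 2.35 CPM) the value was -1.38 ± 1.04 (adjusted p = 0.757). Without wild-type 1 the knockout value against wild-type was -1.36, and without all 4 embryos of title number 18 it was -0.53. Without knockout 3 it was -2.59, with an unadjusted p of 0.049 in edgeR that did not pass adjustment.

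Myog, the factor that drives myoblast differentiation, is on the plus strand of chromosome 1 between 134217742 and 134220286 and followed the order of Myod1 at a higher level. Wild-type 1 to 4 had 42.8, 26.4, 10.2 and 8.20 CPM. Heterozygous 1 to 4 had 28.0, 7.08, 19.99 and 9.74 CPM, and knockout 1 to 4 had 10.8, 12.96, 11.2 and 2.70 CPM. The 3 embryos highest in Myod1 were also highest in Myog, heterozygous 3 came next, and knockout 4 was lowest. The knockout mean of 9.41 ± 4.57 CPM was 2.33-fold below the wild-type mean of 21.9 ± 16.1 CPM in the fit, a log2 fold change of -1.22 ± 0.59 (SE) that did not pass the test (edgeR adjusted p = 0.613). The heterozygous mean was 16.2 ± 9.64 CPM (knockout against heterozygous -0.79 ± 0.59, adjusted p = 0.756). The wild-type value rested on the embryos of title number 18. Knockout against wild-type was -0.67 without wild-type 1 and -0.052 without all 4 embryos of that number. Without wild-type 4 it was -1.49, and DESeq2 on all embryos gave an unadjusted p of 0.028 that did not pass adjustment.

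Mymk, the gene of the fusion protein myomaker, lies on chromosome 2 from 26951648 to 26962173 on the minus strand. Wild-type 1 to 4 had 2.31, 1.80, 0.808 and 0.521 CPM, and heterozygous 1 to 4 had 1.44, 1.04, 1.08 and 0.762 CPM. Knockout 1 to 4 had 1.28, 0.83, 1.04 and 0.153 CPM. The same 3 embryos of title number 18 were highest, and knockout 4 was again lowest, with 10 counts. The knockout mean of 0.825 ± 0.484 CPM against the wild-type mean of 1.36 ± 0.836 CPM gave a log2 fold change of -0.72 ± 0.57 (SE, edgeR adjusted p = 0.728), and its sign changed to 0.19 without the embryos of title number 18. Mymx, which encodes myomixer, the second muscle fusion protein, had 1.91, 1.35, 0.374 and 0.365 CPM in wild-type 1 to 4 and 0.365, 0.166, 0.366 and 0.123 CPM in knockout 1 to 4. Wild-type 1 and 2 stood apart, wild-type 3 and 4 were close to knockout 1 and 3, and knockout 2 and 4 were lower. Its log2 fold change of -1.96 ± 0.61 (SE) did not pass adjustment (edgeR adjusted p = 0.537).

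**Figure D2:**
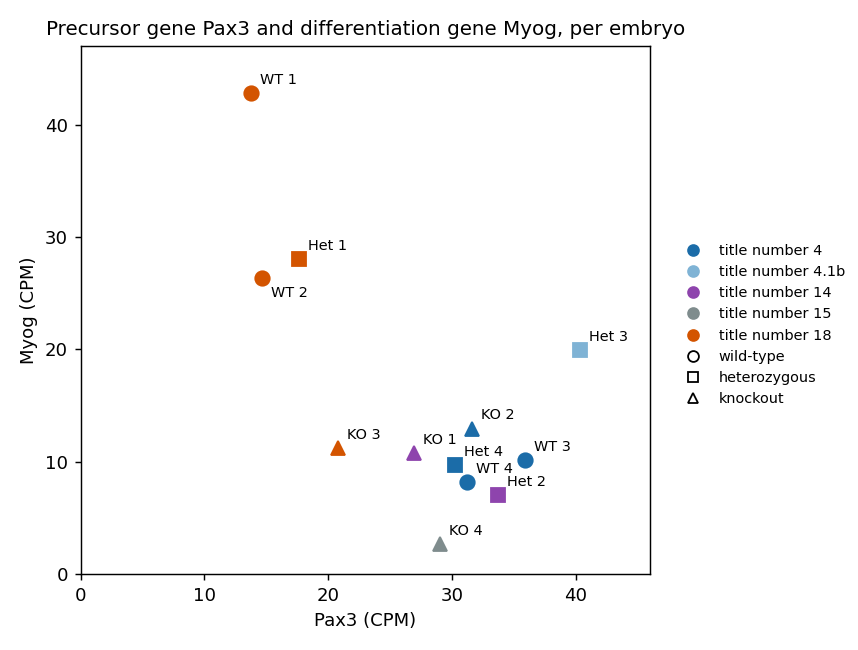
Pax3 (horizontal axis, CPM) against Myog (vertical axis, CPM) in the 12 embryos, with a marker shape per genotype and a colour per title number. The 3 wild-type and heterozygous embryos of title number 18 lie at 13.8 to 17.6 CPM of Pax3 and 26.4 to 42.8 CPM of Myog, and knockout 3, of the same number, lies at 20.8 and 11.2 CPM.

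Acta1, the skeletal muscle actin that embryonic heart also expresses, lies on chromosome 8 from 124618497 to 124621514 on the minus strand. Wild-type 1 to 4 had 30.2, 27.6, 25.5 and 22.8 CPM, and knockout 1 to 4 had 25.7, 27.1, 9.80 and 18.2 CPM. Heterozygous 1, 3 and 4 had 21.2, 42.9 and 21.6 CPM, and the library labelled heterozygous 2 had 78.1 CPM, the highest of the 12. Knockout 3 was the lowest embryo, and wild-type and knockout values overlapped. Knockout embryos (20.2 ± 7.96 CPM) were 2.03-fold below heterozygous embryos (41.0 ± 26.8 CPM) in the fit, at -1.02 ± 0.40 (log2, SE, edgeR adjusted p = 0.643, unadjusted p under the threshold of 0.05). Without the library labelled heterozygous 2 that value was -0.50, with an unadjusted p above that threshold. Against wild-type embryos (26.5 ± 3.14 CPM) it was -0.39 ± 0.39 (adjusted p = 0.778). With the title number as a block the value against wild-type was -0.80, with an unadjusted p under 0.05 (adjusted p = 0.870).

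The high Acta1 of the library labelled heterozygous 2 came together with other actin and contractile genes. That library had 673 CPM of the cardiac actin gene Actc1, where the other embryos had 167 to 456 CPM. Its level of Acta2, smooth muscle actin, was 353 CPM against 85.1 to 205 CPM, and that of the cytoskeletal actin Actg1 was 3705 CPM against 934 to 1954 CPM. It was therefore the highest embryo for Acta1, Actc1, Acta2 and Actg1. The other smooth muscle actin gene, Actg2, did not share this, at 3.65 CPM there against 6.63 CPM in wild-type 1, the highest embryo. Myod1 (0.613 CPM) and Myog (7.08 CPM) of that library were among the lower values. Heart markers summed to 611 to 782 CPM in wild-type, 516 to 842 in heterozygous and 440 to 808 CPM in knockout embryos. Smooth muscle markers summed to 265 to 355, 256 to 579 and 203 to 336 CPM. The part of these cell types in the Acta1 values was not tested. Acta1 counts were fractional in 6 of 12 embryos, from reads shared with other places, so part of its signal may belong to another actin gene.

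Myh3, embryonic myosin heavy chain, is on the plus strand of chromosome 11 between 66969101 and 66993117. It was 15.3, 15.8, 35.8 and 12.3 CPM in wild-type 1 to 4, and 13.4, 21.0, 43.0 and 15.2 CPM in heterozygous 1 to 4. In knockout 1 to 4 it was 19.5, 15.2, 11.5 and 3.80 CPM. Wild-type 3 and heterozygous 3 were the 2 highest, neither of title number 18, and knockout 4 was the lowest. The knockout mean was 12.5 ± 6.68 CPM against 19.8 ± 10.8 in wild-type (log2 fold change -0.66 ± 0.49 SE, edgeR adjusted p = 0.707) and 23.2 ± 13.6 CPM in heterozygous embryos (-0.89 ± 0.49, adjusted p = 0.695). Without wild-type 3 the value against wild-type was -0.20. Of other myosin genes, Myh7, in the skeletal sarcomere list below, was higher at 28.2 to 248 CPM, and how much of it came from heart was not tested. Myh8, the perinatal form, reached 1.52 CPM, and the adult forms Myh1, Myh2 and Myh4 reached at most 0.299 CPM.

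Across the 12 embryos the genes formed more than 1 pattern. Myod1, Myog and Mymk varied together, with Pearson correlations of log2 CPM of 0.94 for Myod1 and Myog, 0.94 for Myod1 and Mymk and 0.90 for Myog and Mymk. Pax3 and Pax7 had a correlation of 0.71, and Pax3 and Myog one of -0.62. Myf5 went with Lbx1 (0.77) and not with Myog (-0.02). These are descriptions over 12 embryos that share 3 genotypes and a few title numbers, and Lbx1, Mymk, Myf6 and Myod1 were sparse in some embryos.

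The split of Pax3 from Myod1, Myog and Mymk followed the title number in the wild-type and heterozygous embryos. In wild-type 1, wild-type 2 and heterozygous 1, of title number 18, Myog averaged 32.4 ± 9.04 CPM (SD, n = 3), Myod1 6.12 ± 1.29 and Mymk 1.85 ± 0.434 CPM. In the 4 embryos of title number 4, knockout 2 included, Myog averaged 10.3 ± 1.99 CPM (SD, n = 4), Myod1 0.869 ± 0.306 and Mymk 0.730 ± 0.142 CPM. The ranges of all 3 genes were separate, with means 3.15, 7.05 and 2.53 times as high in the former embryos. Pax3 was 2.10 times lower there (15.3 ± 2.02 against 32.3 ± 2.50 CPM), also with separate ranges. Myf6, Pax7, Myf5 and Lbx1 were lower by 2.21, 1.88, 1.70 and 1.67 times in mean. Ranges were narrowly separate for Myf5 (at most 3.44 against at least 3.51 CPM) and Lbx1 (at most 1.07 against at least 1.10 CPM). Those of Myf6 and Pax7 overlapped. The sarcomere genes Acta1 and Myh3 did not follow the split. Acta1 was at 26.3 ± 4.61 against 24.2 ± 2.53 CPM and Myh3 at 14.8 ± 1.29 against 19.6 ± 10.9 CPM, with overlapping ranges. Knockout 2 is kept in the means of number 4, so the groups compared differ in genotype. Of those 4 embryos it had the highest Myog, Mymk and Myf5 and the lowest Myod1. Knockout 3, also of title number 18, is left out of the means of that number and described next. This grouping was chosen after its values were seen, so it is given without a test.

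Knockout 3 shared title number 18 but not all of this pattern. Its Pax3 of 20.8 CPM was low, next above theirs. Its Myog of 11.2 CPM, Myod1 of 1.76 CPM and Mymk of 1.04 CPM were 2.89, 3.49 and 1.78 times below the means of the other embryos of that number. Its Acta1 was 2.69 times below theirs. By rank, its Myod1 still lay above every embryo outside title number 18, which reached 1.57 CPM. Within title number 18 the difference of 1 knockout from 2 wild-type embryos was -1.58 for Myog, -1.80 for Myod1 and -0.95 for Mymk on the log2 CPM scale (prior count of 2). Within title number 4 the same differences were 0.50, -0.54 and 0.34. The directions of Myog and Mymk therefore differed between the 2 numbers, with 1 knockout embryo in each and no test. Title number 14 holds no wild-type embryo. There, knockout 1 minus the library labelled heterozygous 2, whose Mfsd12 went against its label, was 0.60 for Myog, 0.94 for Myod1 and 0.30 for Mymk. Knockout 3 also carried the highest yolk sac marker sum, and the part of that RNA in its muscle values was not tested.

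The ratio of Myog to Pax3 per kilobase summarised the pattern. It was 8.13 and 4.71 in wild-type 1 and 2 and 4.16 in heterozygous 1. In all other embryos it lay between 0.242, in knockout 4, and 1.41, in knockout 3. Within the knockout group the ratio was 1.04, 1.07, 1.41 and 0.242, and in wild-type 3 and 4 it was 0.741 and 0.686.

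**Figure D3:**
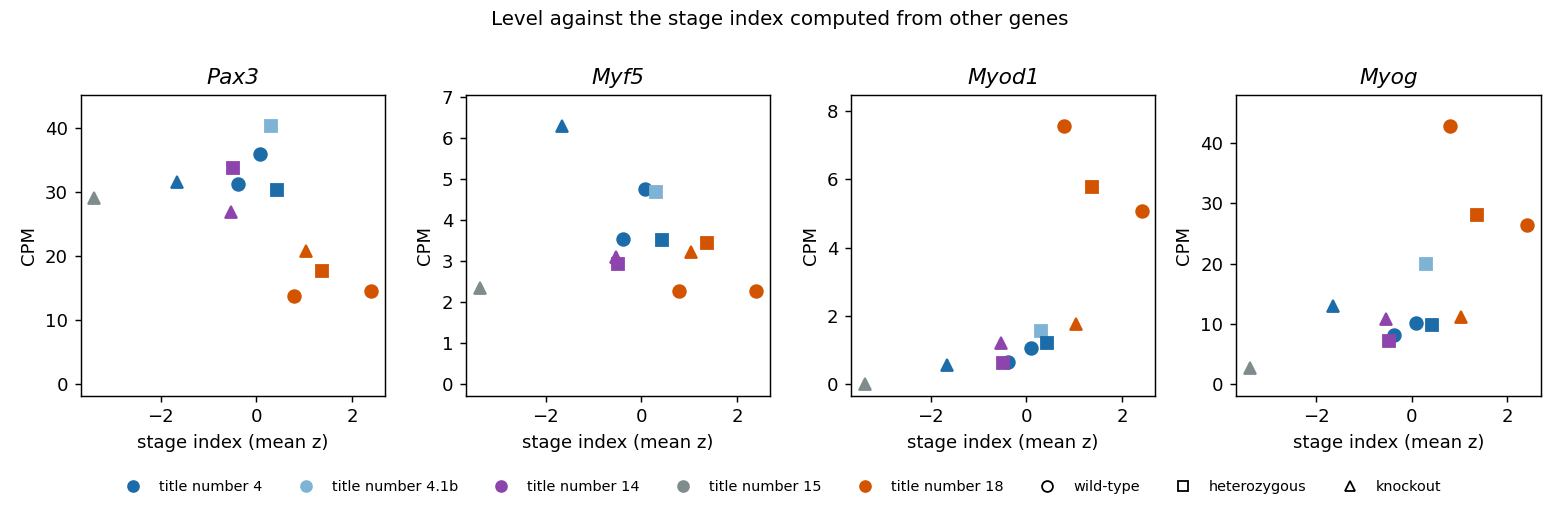
Expression stage index of each embryo (horizontal axis, mean z score of later genes minus that of earlier genes) against CPM of Pax3, Myf5, Myod1 and Myog (vertical axes). Each genotype has a marker shape and each title number a colour. Knockout 4 has the lowest index, -3.38, and the lowest Myog and Myod1, while knockout 3 has an index of 1.03, next to the 3 wild-type and heterozygous embryos of title number 18, but a lower Myog than they have.

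The order of the embryos by other genes of developmental stage was partly the same. The stage index combined 13 genes that are higher later in development and 12 that are lower later, none of them among the 10 genes. It was 0.79, 2.41, 0.084 and -0.38 in wild-type 1 to 4, and 1.37, -0.48, 0.31 and 0.43 in heterozygous 1 to 4. It was -0.53, -1.65, 1.03 and -3.38 in knockout 1 to 4. The 4 embryos of title number 18 had the 4 highest values, and 3 of the 4 knockout embryos had the lowest values together with the library labelled heterozygous 2. With the index as a covariate, the knockout difference from wild-type was -0.18 for Myog and -0.15 for Myod1 (log2). With the title number as a block it was -0.25 and -0.82. The Acta1 difference moved the other way, from -0.39 to -0.82 with the index and to -0.80 with the block, and passed the adjusted threshold in neither. The labels mention a computed stage, but the values used here hold none per embryo, so stage, title number and genotype cannot be fully told apart.

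None of the 10 genes changed between genotypes by the test over all genes. In knockout against wild-type embryos 0 of 10 passed an adjusted p of 0.05 in edgeR, where 0.00% of all 20771 genes passed, and 0 of 10 had an unadjusted p under 0.05, where 8.33% of all genes did. The sign was negative for 7 of 10, against 48.7% of all genes, with a median log2 fold change of -0.33 against 0.011 for all genes. That median ran from -0.55 without knockout 2 to -0.12 without wild-type 3 when single embryos were left out. The positive ones were Pax3, Myf5 and Myf6, and their signs depended on the embryos and model used.

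In knockout against heterozygous embryos 0 of 10 passed the adjusted threshold in edgeR, as did 0.00% of all genes, and Acta1 alone had an unadjusted p under 0.05, where 7.40% of all genes did. The sign was negative for 9 of 10, against 50.1% of all genes, and the median was -0.41 against -0.00055, with a range of -0.53 to -0.22 when single embryos were left out. With the title number as a block the median was 0.0079. In heterozygous against wild-type embryos 0 of 10 passed the adjusted threshold in edgeR (0.00% of all genes) and 0 of 10 had an unadjusted p under 0.05 (1.01% of all genes). The sign was negative for 3 of 10, against 51.6% of all genes, with a median of 0.17 that ranged from -0.24 to 0.45 when single embryos were left out. The comparisons share embryos, so these counts are not independent. By plain CPM, 0 of 10 genes had separate ranges in any of the 3 comparisons, where 1.82% of all genes were fully lower and 1.60% fully higher in knockout than in wild-type embryos. The same shares were 1.93% and 1.51% for knockout against heterozygous and 0.443% and 0.433% for heterozygous against wild-type embryos.

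**Figure D4:**
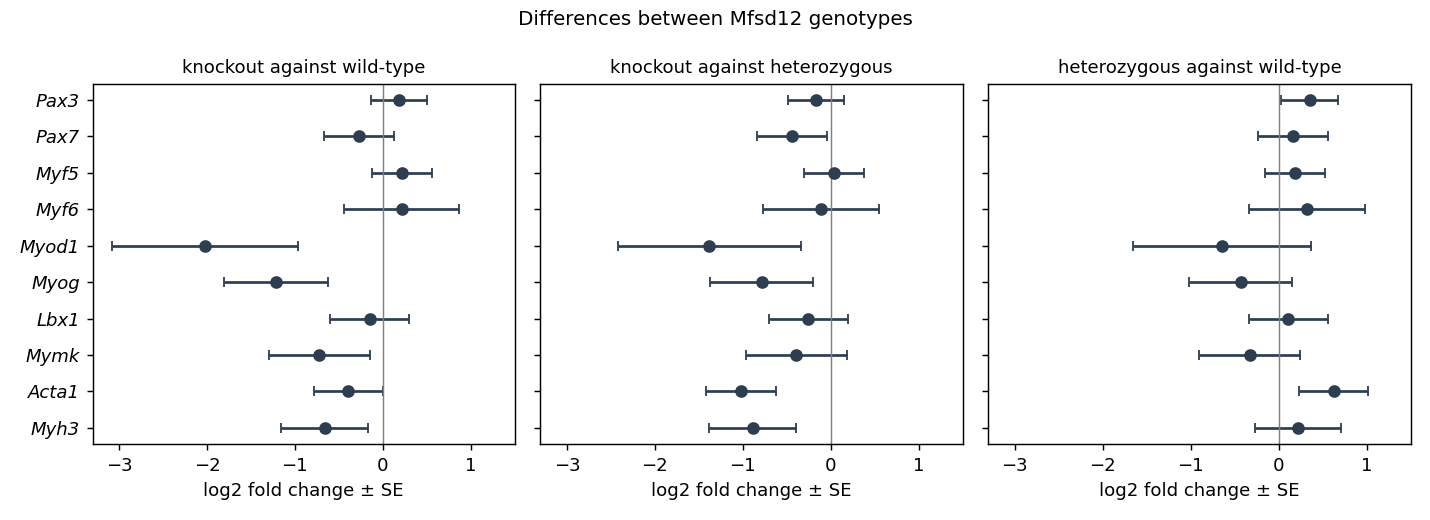
Log2 fold changes of the 10 genes (horizontal axis) in the 3 genotype comparisons, with bars for 1 SE of the edgeR fit over 12 embryos. Myod1 has the widest bar, at -2.02 ± 1.06 in knockout against wild-type, and Myf5 stays near 0 in all 3 comparisons.

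The precision limits these statements. The SE of the knockout difference from wild-type was 0.32 to 0.40 (log2) for Pax3, Pax7, Myf5 and Acta1, 0.45 to 0.66 for Lbx1, Myh3, Mymk, Myog and Myf6, and 1.06 for Myod1. Differences of several SEs could be missed in the group sizes used. Mfsd12 itself, at -2.01 ± 0.33 (log2, SE), did not pass the test (edgeR adjusted p = 0.385). A p that missed the threshold does not show equal levels.

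Genes around the 10 in the muscle program were read from 6 further lists, and 0 members of any list passed the adjusted threshold in edgeR in knockout against wild-type embryos. Among 19 upstream regulators of somites and muscle precursors, 14 were negative and 5 positive, with a median of -0.14, and 4 had an unadjusted p under 0.05. Over all genes, 48.7% were negative and 8.33% had such a p, and the counts of the lists below are to be read beside these shares. Meox1, a homeobox factor of early somites, had 54.0 ± 24.4 CPM (knockout) against 31.6 ± 8.16 CPM (wild-type), a log2 fold change of 0.77 ± 0.29 (SE, edgeR adjusted p = 0.552). Pitx3, a homeobox factor of lens and muscle, was at 0.0661 ± 0.0286 against 0.331 ± 0.146 CPM (-2.30 ± 0.99, adjusted p = 0.597), a level of few counts. Of 10 genes for migration of limb muscle precursors, 6 were positive and 4 negative with a median of 0.049. Met, the receptor needed for their departure from the somite, had 22.9 ± 0.630 CPM (knockout) against 16.7 ± 6.95 CPM (wild-type) (0.45 ± 0.26, adjusted p = 0.638), where wild-type 1 and 2 had 9.02 and 12.7 CPM. Cxcl12, a chemokine that guides migrating cells, differed by -0.24.

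Among the 15 tested MEF2 factors, E-proteins and other partners of the myogenic factors, 13 were positive, with a median of 0.11. Tead4, a transcription factor active in myoblasts and other tissues, was at 12.2, 13.7, 10.4 and 14.3 CPM in knockout 1 to 4 and 8.54, 6.94, 8.89 and 9.31 CPM in wild-type 1 to 4. The ranges did not overlap, and the log2 fold change of 0.59 ± 0.18 (SE) did not pass adjustment (edgeR adjusted p = 0.537). The E-protein gene Tcf3 differed by 0.091, Mef2a by 0.30 and the coactivator Carm1 by 0.0017. Of 20 genes listed as inhibitors of the myogenic factors, 11 were negative and 9 positive with a median of -0.053. The helix-loop-helix inhibitors Id2 and Id3 differed by 0.14 and -0.28. Hes6, a Hes family member, is on this list although it counters Hes1, which is listed too. It had 22.7 ± 6.48 CPM (knockout) against 34.7 ± 5.03 CPM (wild-type), a difference of -0.62 ± 0.22 (edgeR adjusted p = 0.546). Mdfi, an inhibitor of the MyoD family, differed by -0.70 (adjusted p = 0.619).

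Of 21 fusion and muscle membrane genes, 13 were negative with a median of -0.070, and Mymx alone had an unadjusted p under 0.05. The adhesion genes Jam3 and Ncam1 differed by -0.029 and -0.13, and both are expressed well beyond muscle. Among 28 tested sarcomere genes of skeletal muscle, 22 were negative with a median of -0.29, and 5 had an unadjusted p under 0.05, all lower, against 48.7% negative and 8.33% with such a p over all genes. Tnnt1, slow skeletal troponin T, was at 45.6, 30.8, 14.4 and 12.8 CPM in wild-type 1 to 4 and 12.5, 7.26, 13.6 and 4.35 CPM in knockout 1 to 4. Wild-type 1, wild-type 2 and heterozygous 1 (28.2 CPM), all of title number 18, stood apart from the rest. Knockout 1 and 3 were close to wild-type 3 and 4. Its log2 fold change was -1.46 ± 0.44 (SE, edgeR adjusted p = 0.537). Mylpf, a fast skeletal myosin light chain, gave -1.27 ± 0.41 (adjusted p = 0.537), from 16.6 ± 10.6 CPM in wild-type to 6.86 ± 3.05 CPM in knockout embryos. Actc1 and Tpm1, which heart expresses at high levels, were the most abundant genes of the list and differed by 0.0062 and -0.20. Against heterozygous embryos, 24 of the 28 sarcomere genes were negative with a median of -0.48.

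**Figure D5:**
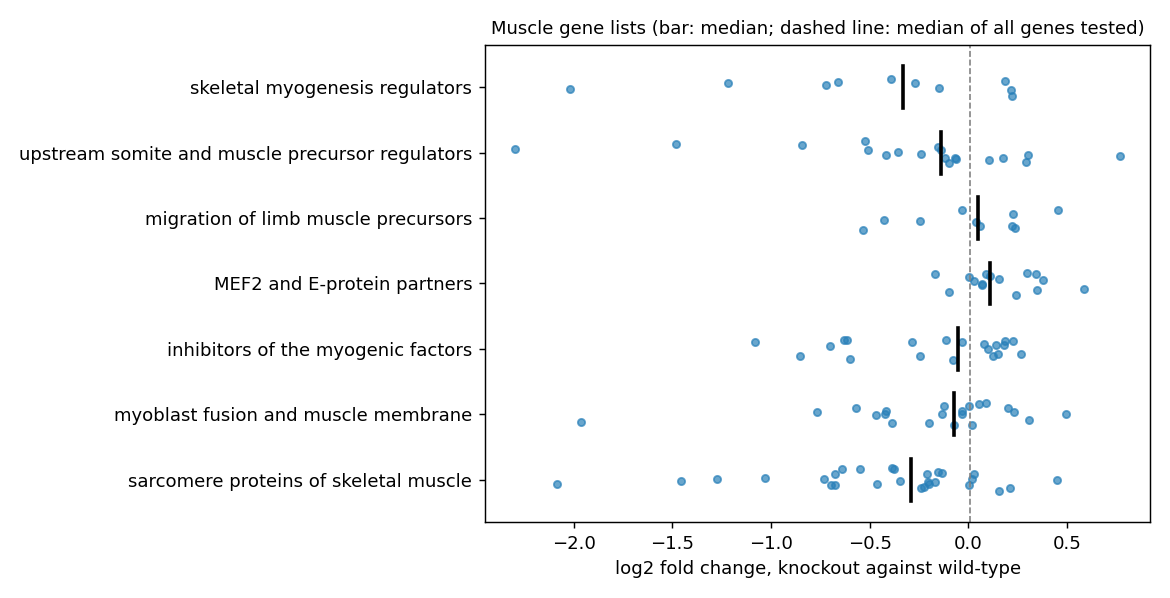
Log2 fold change of knockout against wild-type (horizontal axis) for each tested gene among the 10 genes and the further muscle lists (vertical axis). There is 1 point per gene, a bar at each list's median and a dashed line at the median of all genes tested. The sarcomere list has a median of -0.29.

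Marker lists of other tissues were read in the same way. Of 16 heart markers 9 were negative with a median of -0.058, and of 10 smooth muscle markers 9 were negative with a median of -0.31. Sclerotome and tendon markers, which share the somite as a source with skeletal muscle, were negative for 11 of 12 with a median of -0.47. All 10 yolk sac markers were positive, with a median of 4.75 to which knockout 3 contributed most. The 12 genes that are lower later in development were all positive, with a median of 1.60, and 11 of 13 that are higher later were negative, with a median of -0.69. None of these genes passed the adjusted threshold. Their part in the values of the 10 genes was not tested beyond the stage covariate above.

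Genes whose log2 CPM was most like that of a regulator over the 12 embryos were taken among 14007 genes of at least 1 CPM on average, as a description. For Myog the closest was Msc (musculin, a helix-loop-helix factor of muscle precursors) with a Pearson correlation of 0.97 and a Spearman correlation of 0.83, followed by Ube2r2 (0.96 and 0.81) and Limd2 (0.96 and 0.92). Msc was at 4.39 and 2.78 CPM in wild-type 1 and 2 and 3.05 CPM in heterozygous 1, and at 0.199 to 1.63 CPM in the other embryos. It thus showed the same 3 high embryos as Myog. For Pax3 the closest genes were Nek4 (0.97), Mtr (0.96) and Rcbtb1 (0.96). For Acta1 they were Cap2 (0.93), Ywhae (0.92) and Cnn1 (0.92), which the library labelled heterozygous 2 also headed. For Myf5 they were Dnajc25 (0.88), Mief1 (0.84) and Lmnb1 (0.84).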

How the data were processed

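RNA of 12 whole embryos was sequenced from libraries made with a strand-marking mRNA kit from 325 ng of total RNA, per the labels' protocols. The authors deposited 1 table of estimated counts (expected counts, not normalized), with gene lengths. Counting was by featureCounts 2.0.6, per the file headers, with the RefSeq annotation of GRCm39: reads mapping to several places or genes added fractions, mates were counted singly and strand was not used. The submitters' processing notes also list DRAGEN and Subread, with no step given. Of all values 17% were not whole, and they were rounded. The table held 0 rows of spike-in RNA. No pair of embryos of the same genotype agreed within sampling noise (chi-square per degree of freedom of at least 39.6, where 1 is sampling noise).

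The quasi-likelihood test of edgeR 4.0.16 (R 4.3.3, TMM scaling, filterByExpr, robust dispersion) was fitted to the counts of all 12 embryos and 20771 genes, with two-sided p-values adjusted by the Benjamini-Hochberg method at 0.05. It was tested on simulated data. CPM uses TMM-scaled totals, and log2 CPM a prior count of 2. Gene positions are those of the deposited table. Other genes were named by rule: the 2 most abundant per kilobase and the 2 with the smallest p in each muscle list, and the 3 most correlated with Pax3, Myf5, Myog and Acta1. Tnnt1, Mylpf, Mymx and the other list genes came from it, and Actg1, Actg2, Myh7, Myh8, Myh1, Myh2, Myh4 and Ddx3y were chosen apart from it. The 10 genes, the lists and the alternatives were chosen with earlier results of these data known. Alternatives were DESeq2 1.42.0, limma 3.58.1 voom with sample weights, other scalings and filters, the compared genotypes alone, the title number or stage index as a term, each embryo left out, and, added after seeing the data, all embryos but those of title number 18.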

Additional observations from a re-analysis of the deposited data

Results flagged for a closer look

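In 2 of 33 sets of 4 embryos tested, 1 embryo lay far from the other 3 of its genotype, by a gap to the nearest of them that took most of the whole range (Dixon ratios of 0.909 and 0.849, above the 95% critical value). Chance alone sets apart about 1 in 20 such sets. Myf6 was at 2.98 CPM in heterozygous 3, where the other heterozygous embryos had 0.440 to 0.671 CPM. Myh3 was at 35.8 CPM in wild-type 3, where the other wild-type embryos had 12.3 to 15.8 CPM.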

How the results depend on the processing

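The labels give no replicate numbers that link embryos across genotypes. The title number, whose meaning is not stated, was fitted as a block and its values are given below. Over 22 other settings, 0 of 660 values of the 10 genes passed the adjusted threshold and 58 changed sign. Of 30 results, 8 kept their sign throughout: Myod1, Myog, Acta1 and Myh3 in knockout against wild-type embryos, Pax3, Acta1 and Myh3 in knockout against heterozygous embryos, and Pax3 in heterozygous against wild-type embryos. Over all genes, DESeq2 called 122 in knockout against wild-type, 65 in knockout against heterozygous and 4 in heterozygous against wild-type embryos, where edgeR called 0 in each (with an unadjusted p under 0.05 for 8.33%, 7.40% and 1.01% of genes). The title number as a block gave 2 in knockout against wild-type. With single embryos left out the counts ran from 0 to 1 against wild-type (1 without knockout 1 or knockout 3) and from 0 to 1 against heterozygous embryos (1 without knockout 3). The cause of these changes was not tested.

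Log2 fold changes that changed sign were as follows. Under limma voom, knockout against wild-type was -0.044 for Pax3, -0.022 for Myf5 and 0.12 for Mymk. There, knockout against heterozygous was -0.11 for Myf5 and 0.58 for Myf6, and heterozygous against wild-type was -0.26 for Myf6, 0.39 for Myod1, 0.21 for Myog, -0.025 for Lbx1 and 0.22 for Mymk. With the title number as a block, knockout against wild-type was 0.094 for Lbx1. With that block, knockout against heterozygous was 0.0065 for Pax7, 0.9999 for Myf6, 0.020 for Myog, 0.15 for Lbx1 and 0.0094 for Mymk. Heterozygous against wild-type was then -0.076 for Pax7, -0.49 for Myf6, -0.053 for Lbx1, -0.088 for Acta1 and -0.44 for Myh3. With the stage index, knockout against wild-type was -0.22 for Pax3, -0.024 for Myf6 and 0.20 for Mymk, and knockout against heterozygous was -0.088 for Myf5, 0.26 for Myod1, 0.084 for Myog and 0.25 for Mymk. Without the embryos of title number 18, knockout against wild-type was -0.19 for Pax3, -0.075 for Myf5, -0.30 for Myf6 and 0.19 for Mymk. Heterozygous against wild-type was then -0.051 for Pax7, -0.16 for Myf5, -0.066 for Myf6, 0.40 for Myod1, 0.42 for Myog, -0.11 for Lbx1 and 0.52 for Mymk.

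With each embryo left out in turn, knockout against wild-type ran from -0.0078 to 0.46 for Pax3, from -0.52 to 0.040 for Pax7, from -0.15 to 0.48 for Myf5, from -0.086 to 0.86 for Myf6 and from -0.53 to 0.053 for Lbx1. Knockout against heterozygous ran from -0.34 to 0.21 for Myf5, from -0.38 to 0.93 for Myf6 and from -0.64 to 0.012 for Lbx1. Heterozygous against wild-type ran from -0.22 to 0.47 for Pax7, from -0.72 to 0.97 for Myf6, from -1.66 to 0.022 for Myod1, from -0.84 to 0.12 for Myog, from -0.16 to 0.26 for Lbx1, from -0.60 to 0.050 for Mymk and from -0.26 to 0.67 for Myh3. Counts of 10 to 134 for Mymk, 18 to 163 for Myf6, 24 to 92 for Lbx1 and 0 to 439 for Myod1 per embryo limit what could be seen in these genes.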
